A study of Homo sapiens with 13 samples.

Results

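The genes described here are 35 genes of glycolysis and of the response to low oxygen, taken by symbol from a list out of the 60639 genes of both count tables. All 35 were found in both tables. By role they are 4 genes of glucose entry and hexose phosphorylation (SLC2A1, SLC2A3, HK1, HK2), 7 of upper glycolysis (GPI, PFKL, PFKM, PFKP, ALDOA, ALDOC, TPI1) and 6 of lower glycolysis (GAPDH, PGK1, PGAM1, ENO1, ENO2, PKM). A further 3 are genes of lactate handling (LDHA, LDHB, SLC16A3), 4 are regulators of flux (PDK1, PDK3, PFKFB3, PFKFB4) and 11 are genes best known for their induction by low oxygen (VEGFA, BNIP3, BNIP3L, CA9, EGLN1, EGLN3, ADM, NDRG1, ANKRD37, P4HA1, KDM3A). Levels are given in CPM, read counts scaled to the depth of each library and by TMM, a factor that corrects for differences in composition.

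Glycolysis turns glucose into pyruvate, which is either reduced to lactate and exported or oxidised in mitochondria. When oxygen is low, the prolyl hydroxylases (EGLN1, EGLN3) no longer mark hypoxia-inducible factor (HIF) for destruction, and HIF binds short DNA motifs beside glucose transporter, glycolytic and other genes and raises their transcription. Pluripotent stem cells are known for high glycolysis, and neurons for brain forms of several glycolytic enzymes.

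The RNA came from H9, an established line of human embryonic stem cells, modified to make the proneural transcription factor NEUROG2 when doxycycline is present. The labels call the product excitatory neurons past division and ask how the growth factor FGF2 acts on their gene expression. The labels name neither the promoter of the inducible gene nor whether the line is 1 clone, and each library came from 1 well of a six-well plate. In the doxycycline set, sequenced as 1 run, 1 library each came from undifferentiated cells at day 0, from day 5 and day 11 without doxycycline, and from day 5 and day 11 with doxycycline at 1 µg/ml throughout. Every differentiating culture was kept in E8, a stem cell medium, for the first 2 days and in 3N, a neural medium, from then on. In the FGF2 set, sequenced as another run, every culture had doxycycline at 1 µg/ml for days 1 to 6. Day-6 controls had doxycycline alone, and day-6 FGF2 cultures also had FGF2, at 20 µg/ml per the labels, for those 6 days (early FGF2). Day-12 controls had a further 6 days in 3N without doxycycline, and day-12 FGF2 cultures had FGF2 for that period (late FGF2). The labels are not uniform here: late FGF2 is given as days 6 to 12 in one field and days 7 to 12 in another, and the text for the day-12 controls speaks of 6 days of growth although its periods add to 12. Each of these 4 groups has 2 libraries. The titles number them as G1 and G2, and nothing says whether these are separate cultures, clones or lines, so p-values measure only the spread between these libraries, which may be technical.

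Counted reads per library numbered 28443657 to 47159475 in the doxycycline run and 22802501 to 30014661 in the FGF2 run. The summed level of 8 neuron markers was 46.2 to 283 CPM in the 3 libraries without doxycycline and 12700 to 15800 CPM in the 2 with it. In the FGF2 set it was 8370 to 8660 CPM on day 6 and 17500 to 18900 CPM on day 12. All 8 neuron markers were detected at 1 CPM or more in every library that had received doxycycline. The 5 markers of dividing cells summed to 1430 to 1610 CPM without doxycycline and 24.3 to 56.1 CPM with it, to 293 to 425 CPM on day 6 and to 7.93 to 10.7 CPM on day 12. No marker of either list was at 0 counts in any library. Markers of other cells differed too. Without and with doxycycline, 6 pluripotent stem cell markers summed to 1550 to 4080 CPM and 171 to 552 CPM, 6 of mesenchyme to 244 to 948 CPM and 22.8 to 30.1 CPM, and 5 of endothelium to 95.6 to 243 CPM and 1.88 to 7.11 CPM. The highest mesenchyme sum was in the day-5 control. The 5 neural progenitor markers summed to 393 to 655 CPM without and 516 to 1010 CPM with doxycycline, ranges that overlap. Their sums were 1490 to 1550 CPM on day 6 and 539 to 657 CPM on day 12. Mesenchyme summed to 30.4 to 38.4 CPM on day 6 and 6.68 to 12.1 CPM on day 12. Endothelium summed to 11.5 to 11.9 CPM and 1.05 to 2.09 CPM. On day 6 and day 12 the pluripotent sums were 209 to 219 CPM and 108 to 144 CPM. Of these 6 markers only 2 reached 1 CPM on day 6 and only 1 on day 12. TDGF1 was at 0 counts in all 8 libraries, and L1TD1 in every day-12 library. NANOG was at 0 in 3 of 4 on day 6 and 2 of 4 on day 12, where POU5F1 was at 0 in the same 2. The 7 astroglia and oligodendroglia markers summed to 90.7 to 214 CPM without and 30.3 to 53.1 CPM with doxycycline. Their sums were 28.9 to 31.8 CPM on day 6 and 35.1 to 42.3 CPM on day 12. Most of these marker sums differed with doxycycline and with day as the groups compared below do, and their part in the results was not tested. In bulk RNA, fewer cells of a type and less RNA per cell cannot be told apart.

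The HIF motif is shown first in the promoters of 4 genes described below: LDHA (lactate dehydrogenase A), HK2 (the inducible hexokinase), PGK1 (phosphoglycerate kinase) and ENO2 (the neuronal enolase). For each, the window with the most motif matches was taken from RefSeq promoters of build GRCh38.p14, and the 250 bases before the annotated start are printed. Capitals mark ACGTG, a form of the core of the hypoxia response element, or its reverse complement CACGT. The other form, GCGTG, is left in lower case. It has 2 matches in the printed bases of HK2, 1 in PGK1 and 0 in LDHA and ENO2. In CACGTG the matches on both strands overlap.
LDHA promoter, chr11:18394313-18394562, plus strand: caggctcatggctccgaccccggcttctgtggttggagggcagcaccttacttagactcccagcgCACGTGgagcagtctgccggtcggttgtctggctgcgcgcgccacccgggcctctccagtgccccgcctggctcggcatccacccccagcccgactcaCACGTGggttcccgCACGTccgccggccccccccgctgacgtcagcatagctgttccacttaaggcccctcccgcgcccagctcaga
HK2 promoter, chr2:74834920-74835169, plus strand: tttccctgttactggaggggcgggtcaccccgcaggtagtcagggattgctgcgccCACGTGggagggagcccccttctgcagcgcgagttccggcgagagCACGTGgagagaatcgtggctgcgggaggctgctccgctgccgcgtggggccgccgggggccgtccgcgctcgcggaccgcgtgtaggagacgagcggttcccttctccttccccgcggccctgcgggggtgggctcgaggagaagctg
PGK1 promoter, chrX:78103998-78104247, plus strand: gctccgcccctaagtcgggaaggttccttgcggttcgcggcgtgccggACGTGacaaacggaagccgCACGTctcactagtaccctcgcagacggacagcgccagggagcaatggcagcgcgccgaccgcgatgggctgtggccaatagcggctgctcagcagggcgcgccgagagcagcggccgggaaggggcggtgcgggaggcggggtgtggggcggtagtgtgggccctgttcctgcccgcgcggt
ENO2 promoter, chr12:6914330-6914579, plus strand: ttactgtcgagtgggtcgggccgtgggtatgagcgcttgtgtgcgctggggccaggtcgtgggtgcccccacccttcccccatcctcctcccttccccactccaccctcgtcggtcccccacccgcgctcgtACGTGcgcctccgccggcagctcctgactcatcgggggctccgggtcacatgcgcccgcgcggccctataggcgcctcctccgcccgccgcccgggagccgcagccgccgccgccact
Within the printed bases LDHA has 5 matches of ACGTG, HK2 4, PGK1 2 and ENO2 1, and PGK1 has 3 over its whole window. Matches on both strands share the 6 letters CACGTG at 2 places in LDHA and at 2 in HK2. Promoters of 31 of the 35 genes were matched by symbol, and those of BNIP3L, NDRG1, SLC2A3 and VEGFA were not. Over the whole 300-base windows, from 250 bases before to 50 after a start, 20 of the 31 genes (64.5%) had ACGTG on either strand in at least 1 window, beside 24.9% of all 27305 genes in the table. Counted by window, these were 24 of 58 windows (41.4%) beside 21.4% of all 35116. At least 3 ACGTG matches in 1 window were found for ALDOC, ANKRD37, HK2, LDHA and PGK1, beside 2.42% of all genes. The printed promoters of HK2, LDHA and PGK1 are thus among the richest in ACGTG matches. Others, such as ENO1, SLC2A1 and EGLN3, had 0 ACGTG matches, and PFKP had at most 1 in a window. Of GCGTG, ENO1 had 2 matches, SLC2A1 1, EGLN3 0 and PFKP up to 3 in a window. This other form of the core, which does not overlap ACGTG by itself, was found on either strand in 19 of 31 genes (61.3%) and in 40.6% of all genes. Counted by window, it was in 24 of 58 windows (41.4%), close to the 36.5% of all windows. A match is a description of letters and not a bound site, and many of the listed genes are known as HIF targets.

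**Figure D1:**
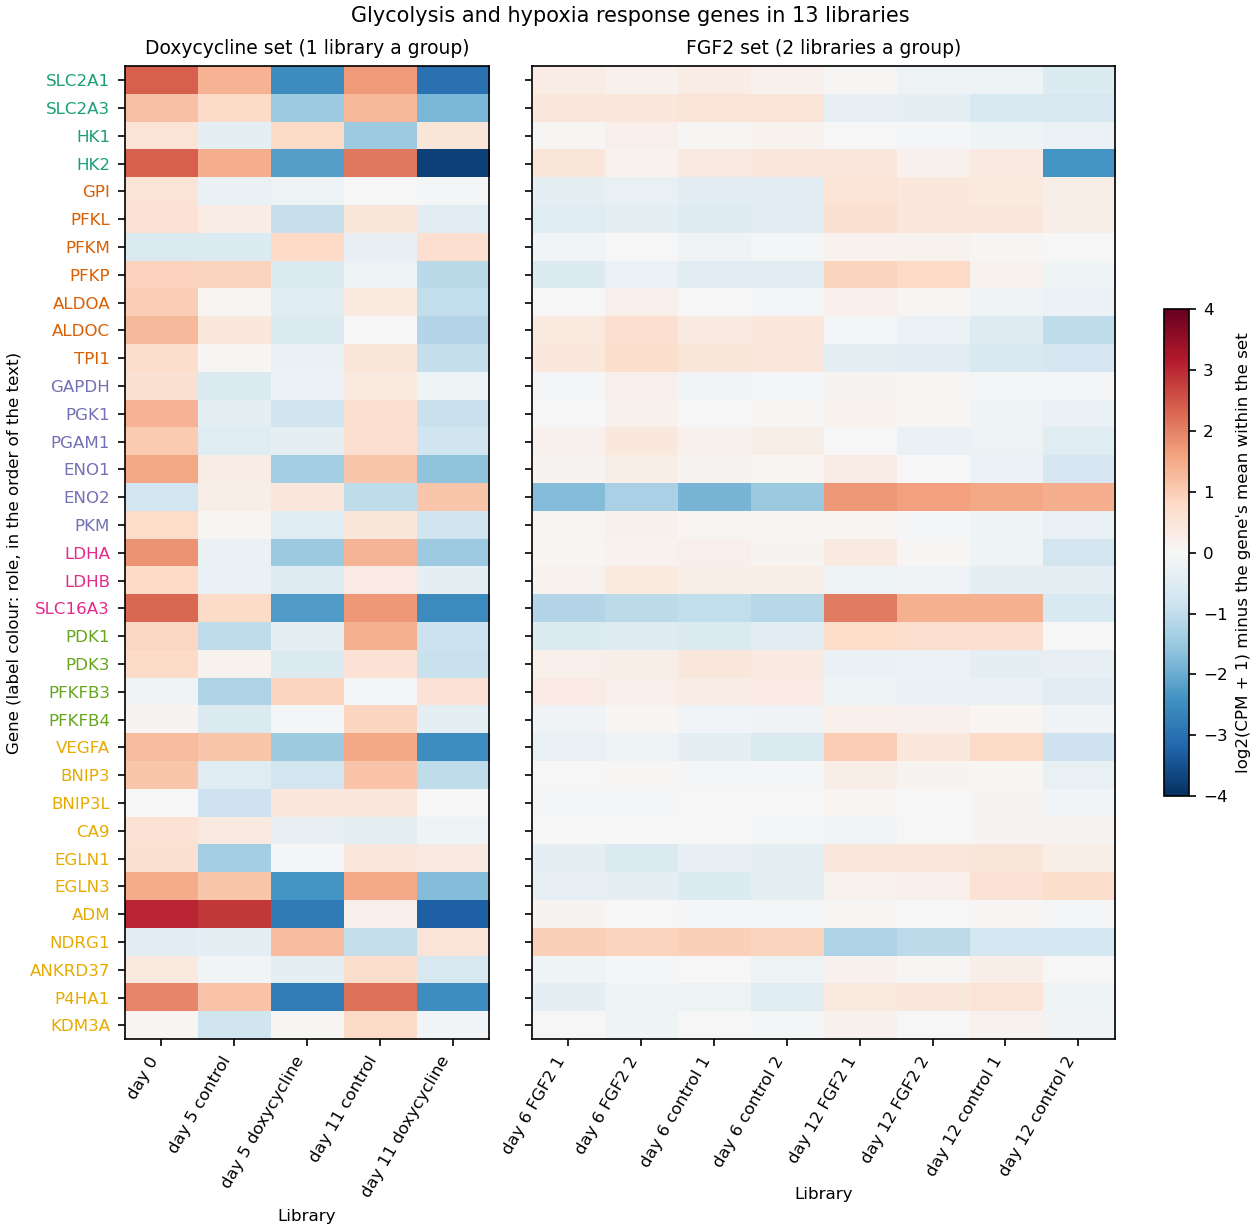
Heat map of log2(CPM + 1) minus the gene's mean within its set, for 35 genes (vertical, label colour by role) in 13 libraries (horizontal, doxycycline set left, FGF2 set right). HK2, SLC2A1, P4HA1 and SLC16A3 are low in both doxycycline libraries, and HK2 is low in 1 of the 8 libraries of the FGF2 set, day-12 control replicate 2.

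As a share of all counted reads, the 35 genes held 1.72% at day 0, 0.811% on day 5 and 1.48% on day 11 without doxycycline, and 0.526% on day 5 and 0.539% on day 11 with it. In the FGF2 set they held 0.555% to 0.705%. Per kilobase of exon, GAPDH (glyceraldehyde-3-phosphate dehydrogenase) had the highest level of the 35 genes in all 13 libraries, from 236.7 to 536 CPM per kilobase. ENO1, the widely expressed enolase, came next in the 3 libraries without doxycycline. LDHB or ENO2 held that place in the 10 libraries that had received it. The order of ENO1 and ENO2 depends on the length used. With the median length of protein-coding transcripts, ENO1 was above ENO2 in all 13 libraries, with 52.1% of enolase on day 11 with doxycycline. GAPDH is a limited measure, since 14.2% of its exon bases overlap another gene and reads counted to 61 pseudogenes named after it equalled 35.8% to 46.3% of the combined reads.

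With doxycycline most of these genes were at lower levels, and the strongest differences lay at the ends of the pathway, in glucose entry and lactate export, and in hypoxia-induced genes. Each doxycycline group is 1 library, so the differences have no replicate check and no test was made, and the action of NEUROG2 cannot be told apart from that of doxycycline itself. A gene that reached 10 CPM in 1 library of a pair was compared, and 2-fold or more after adding 1 CPM to both levels was counted as a difference. Fold values of single genes are ratios of the CPM themselves. On day 5, 18 of 33 genes at that level differed, where 50.2% of all 12895 genes did. Of these 6 were higher, where 29.1% of all genes were, and 12 were lower, where 21.1% were. The median log2 ratio was -0.41, beside 0.23 over all genes. On day 11, 24 of 33 differed, where 45.8% of all 12655 genes did. Here 4 were higher, where 24.6% of all genes were, and 20 were lower, where 21.2% were, with a median of -1.40 beside 0.16. Scaling by library totals in place of TMM moved the median of all genes to 0.06 on day 5 and -0.17 on day 11. Among all genes past 2-fold the higher ones then made up 51.3% in place of 58.0% on day 5, and 41.0% in place of 53.7% on day 11. The 35-gene counts became 5 higher and 13 lower on day 5, and 3 higher and 23 lower on day 11.

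The glucose transporters and HK2 were lower with doxycycline than in the controls of the same day, and HK1 was higher. SLC2A1, the main basal glucose transporter, was at 1094 CPM at day 0, at 549.7 and 688 CPM on days 5 and 11 without doxycycline, and at 35.8 and 25.3 CPM with it. It was thus 15.4-fold lower on day 5 (95% exact counting interval 14.6 to 16.2) and 27.2-fold lower on day 11 (25.4 to 29.1). Intervals here cover counting error only. SLC2A3, the high-affinity transporter of neurons, was at 675 and 997 CPM without and 145 and 112 CPM with doxycycline, so it was the less reduced of the pair. HK2 had 2378 and 3924 counts without doxycycline and 205 and 35 counts with it, 74.1 and 118 CPM against 4.96 and 1.06 CPM. Its level was 15.0-fold lower on day 5 and 111-fold lower on day 11 (80.0 to 160.0). HK1, the hexokinase of brain, was at 203 and 95.3 CPM without and 448 and 370 CPM with doxycycline, a 2.21-fold and a 3.88-fold higher level. At day 0 HK1 was at 378 CPM, so the controls of both days were below day 0 and the doxycycline levels lay near it.

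In the chain from glucose phosphate to pyruvate the differences were smaller and in both directions. PFKM, the muscle-type phosphofructokinase, was at 103 and 122 CPM without and 263 and 246 CPM with doxycycline, while PFKP, the platelet type, was at 146 and 68.0 CPM without and 53.9 and 37.1 CPM with it. PFKL, the liver type, was at 130 and 146 CPM without and 54.6 and 76.6 CPM with it. GPI, glucose phosphate isomerase, was at 194 and 236 CPM without and 204 and 228 CPM with it. ENO1 was at 1101 and 1965 CPM without and 354 and 297 CPM with doxycycline, 3.11-fold and 6.62-fold lower. ENO2 was at 448 and 186 CPM without and 515 and 818 CPM with it, so that the neuronal enolase was 1.15-fold higher on day 5 and 4.41-fold higher on day 11 (4.29 to 4.54). That last ratio sets the higher of both doxycycline levels against the lower of both controls. TPI1, ALDOA, ALDOC, PGK1, PGAM1 and PKM passed 2-fold on day 11 and not on day 5, and were 2.38-fold to 2.98-fold lower there. GAPDH passed on neither day.

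Of the lactate genes, LDHA was at 287 and 886 CPM without and 122 and 125 CPM with doxycycline, 2.36-fold and 7.09-fold lower. Its levels with doxycycline were alike on both days, and the larger ratio on day 11 goes with the higher control. SLC16A3, the lactate exporter MCT4, was at 34.7 and 69.8 CPM without and 3.41 and 2.58 CPM with it, 10.2-fold and 27.1-fold lower. LDHB, the form that favours pyruvate, was at 556 and 840 CPM without and 471 and 525 CPM with it and did not pass 2-fold. Among the regulators PFKFB3, which makes the activator of phosphofructokinase, went the other way on day 5 and was 4.36-fold higher, 31.3 CPM against 136 CPM with doxycycline. That control was below the 67.7 CPM of day 0. On day 11 PFKFB3 was 1.56-fold higher, 71.8 CPM against 112 CPM, and did not pass 2-fold. PDK1, which blocks entry of pyruvate into mitochondrial oxidation, was not past 2-fold on day 5 and was 4.96-fold lower on day 11, where 122 CPM in the control stood against 24.5 CPM. PDK3, a further kinase of that step, was 2.87-fold lower on day 11, and PFKFB4, the partner of PFKFB3, was 2.38-fold lower.

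The hypoxia-induced genes split. P4HA1, a collagen prolyl hydroxylase, was at 92.1 and 196 CPM without and 5.20 and 6.58 CPM with doxycycline, 17.7-fold and 29.8-fold lower. VEGFA, the vascular growth factor, was at 78.5 and 108 CPM without and 12.8 and 5.70 CPM with it, and EGLN3 at 21.4 and 28.7 CPM without and 0.967 and 2.06 CPM with it. ADM, the peptide adrenomedullin, had 2216 and 349 counts without and 17 and 1 counts with doxycycline, a ratio of 168 on day 5 (105 to 289) and of 347 on day 11 (61.9 to 13700). NDRG1, a stress-responsive gene of the same list, went the other way, at 12.2 and 7.89 CPM without and 39.0 and 23.2 CPM with doxycycline, 3.18-fold and 2.95-fold higher. BNIP3L, a receptor for the removal of mitochondria, and EGLN1 were 2.39-fold and 2.61-fold higher on day 5 and under 2-fold on day 11. BNIP3, a related receptor, was 4.64-fold lower on day 11 alone, and KDM3A, a histone demethylase, was past 2-fold on neither day. CA9, the carbonic anhydrase often used as a hypoxia marker, had 5 to 49 counts in these 5 libraries and ANKRD37 was at 1.33 to 4.91 CPM, so both were below the level used for counting.

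**Figure D2:**
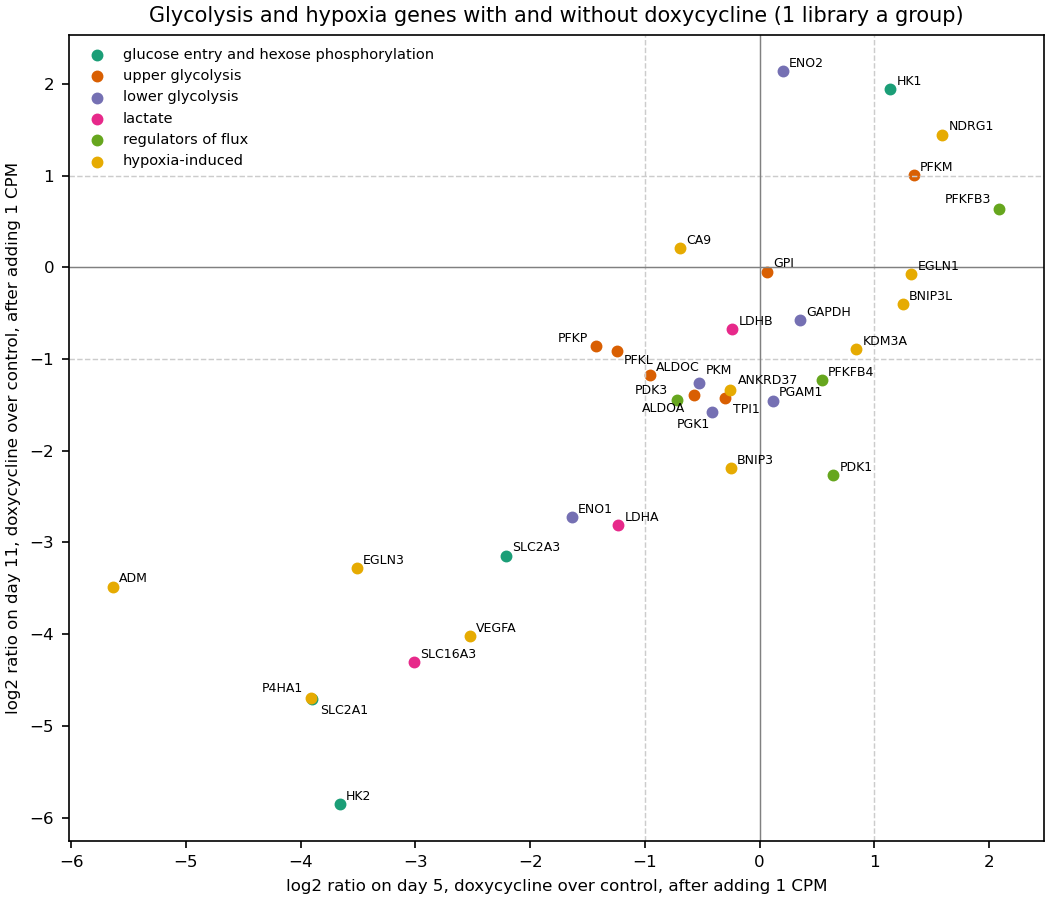
Log2 ratio of doxycycline over control on day 5 (horizontal) and day 11 (vertical), after adding 1 CPM to both levels, for each of the 35 genes (points, coloured by role), with dashed lines at 2-fold. HK2, SLC2A1, P4HA1 and SLC16A3 lie at the lower left, and HK1, NDRG1 and PFKM are past 2-fold in the upper right.

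Without doxycycline many of these genes were at lower levels on day 5 than at day 0, and the part of this in the day-5 differences was not tested. Against day 0, 12 of 33 genes differed, where 9.95% of 11916 genes did: 1 was higher, where 5.62% of them were, and 11 were lower, where 4.33% were (median log2 ratio -0.87, beside -0.12 over all genes). These comparisons share control libraries with those of doxycycline. LDHA was at 1198, 287 and 886 CPM on days 0, 5 and 11, PGK1 at 1597, 469 and 972 CPM, and PDK1 at 80.2, 21.6 and 122 CPM. BNIP3 was at 178, 58.4 and 185 CPM and EGLN1 at 56.0, 13.6 and 49.4 CPM, so that each of these 5 genes was lowest on day 5. ENO2 was highest on day 5, at 220, 448 and 186 CPM. Other genes were lowest on day 11, such as PFKP at 150, 146 and 68.0 CPM and ALDOC at 67.4, 36.0 and 26.65 CPM. On day 11, 4 of 33 genes differed from day 0, where 14.2% of 11996 genes did. None was higher, where 5.77% of genes were, and ADM, HK1, ALDOC and PFKP were lower, where 8.41% were (median -0.25 beside -0.07). HK1 was at 378 CPM at day 0 and at 95.3 CPM on day 11, 3.97-fold lower. With library totals the higher ones made up 42.7% in place of 56.5% of all genes past 2-fold on day 5, and 52.2% in place of 40.7% on day 11. The 35-gene counts became 0 higher and 14 lower on day 5 and 0 higher and 3 lower on day 11. The median of all genes went to -0.22 and 0.09. Between day 5 and day 11 with doxycycline 1 of 28 genes differed, where 7.93% of 11465 genes did. It was VEGFA, which was lower, where 4.44% of genes were, and 0 were higher, where 3.49% were. VEGFA was at 12.8 and then 5.70 CPM.

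In the FGF2 set the day-12 controls differed from the day-6 controls in time and in the end of doxycycline, which cannot be told apart. All 8 libraries were fitted together with edgeR's quasi-likelihood test, with p-values adjusted over 20142 genes and genes called at an adjusted p under 0.05. Of the 35 genes 33 passed the filter on low counts. ADM, with 0 to 4 counts a library, and CA9, with 1 to 5, did not. On day 12, 23 of 33 genes were called, where 64.0% of all genes were. Of these 9 had risen, where 31.7% of all genes had, and 14 had fallen, where 32.3% had, so the shares lay near those of all genes. An unadjusted p under 0.05 was reached by 23 of 33, where 67.3% of all genes reached it. Both day-12 controls were above both day-6 controls for 11 genes, where this held for 41.5% of all genes, and below both for 16, where it held for 42.5%. The median change was -0.06, beside -0.01 over all genes, with members changed in both directions.

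Of the 13 genes of upper and lower glycolysis 4 rose and 6 fell, and ENO2 rose furthest. ENO2 was at 66.4 and 86.6 CPM in the day-6 controls and at 709 and 664.5 CPM in the day-12 controls, with no overlap, a log2 change of 3.17 ± 0.136 (SE, adjusted p = 1.65e-11, edgeR). ENO1 was at 512 and 495 CPM and then at 403 and 296 CPM, a change of -0.52. SLC2A3 fell from 182 ± 0.778 to 81.5 ± 1.45 CPM (SD, n = 2; log2 change -1.16) and SLC2A1 from 42.7 ± 2.77 to 27.8 ± 4.87 CPM (-0.62). HK1 fell by 0.30 on the log2 scale. In upper glycolysis TPI1, triose phosphate isomerase, fell from 335 ± 4.24 to 155 ± 3.25 CPM (-1.11) and ALDOC, the brain aldolase, from 21.9 ± 0.771 to 9.40 ± 2.57 CPM (-1.22). GPI rose from 111 ± 1.70 to 190 ± 15.1 CPM (0.78), PFKL from 30.6 ± 0.877 to 55.1 ± 5.81 CPM (0.85) and PFKP by 0.47. ALDOA, PFKM and GAPDH were not called. TPI1 reads are limited by 4 pseudogenes named after it, whose reads equalled 28.4% to 47.4% of the combined reads.

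In lower glycolysis, lactate handling and regulation genes also changed in both directions. PGK1, PGAM1 and PKM fell, with log2 changes of -0.26, -0.56 and -0.32. LDHA fell from 164 ± 7.00 to 110 ± 29.9 CPM (-0.58, adjusted p = 0.00187, edgeR) and LDHB from 690 ± 9.90 to 452 ± 10.4 CPM (-0.61). PDK1 rose from 26.3 ± 1.98 to 48.2 ± 14.7 CPM (0.87), while PDK3 fell by 0.84 and PFKFB3 by 0.65 on the log2 scale. PFKFB4 was not called. SLC16A3 had levels of 2.32 and 1.97 CPM in the day-6 controls and of 16.5 and 3.24 CPM in the day-12 controls, so that the rise (2.21 ± 0.536, adjusted p = 0.0021, edgeR) rests largely on 1 library. Without day-12 control replicate 1 its change was 0.58 with an adjusted p of 0.173.

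Among hypoxia-induced genes NDRG1 fell from 94.6 ± 3.61 to 29.9 ± 0.262 CPM (-1.66, adjusted p = 2.68e-10, edgeR). The hydroxylases rose, EGLN1 from 34.0 ± 0.827 to 57.6 ± 5.93 CPM (0.76) and EGLN3 from 2.66 ± 0.301 to 6.82 ± 0.483 CPM (1.36). P4HA1 rose from 4.63 ± 0.793 to 7.404 ± 2.93 CPM (0.68). VEGFA was not called, at 7.64 and 6.47 CPM and then 17.9 and 5.33 CPM, and neither were BNIP3, BNIP3L, KDM3A and ANKRD37. Besides that of SLC16A3, the calls of P4HA1, PFKP and PGK1 were lost when 1 library was left out. The log2 change of P4HA1 was 0.51 without day-6 control replicate 2 and 0.19 without day-12 control replicate 1. That of PFKP was 0.44 without day-6 control replicate 1 and 0.27 without day-12 control replicate 1. That of PGK1 was -0.24 without day-6 control replicate 2 and -0.21 without day-12 control replicate 2.

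**Figure D3:**
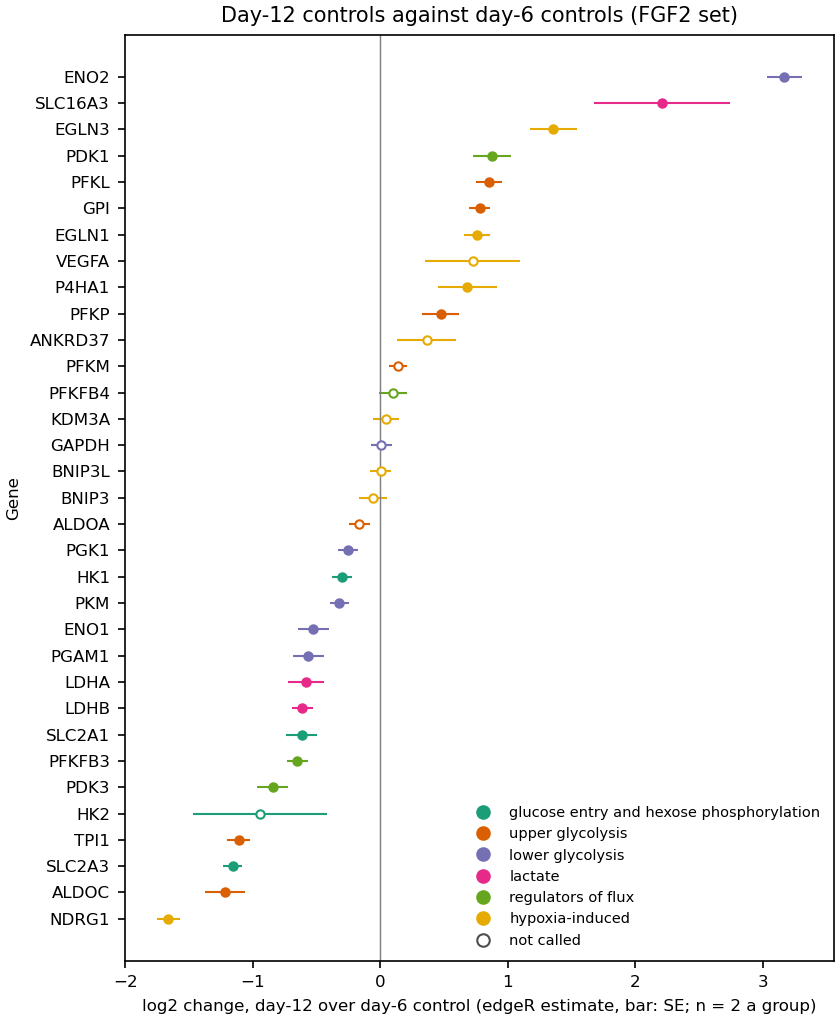
Log2 change of the day-12 over the day-6 controls (horizontal; points are edgeR estimates, bars are SE, n = 2 a group) for the 33 genes tested (vertical, sorted), coloured by role, with open points for genes not called. ENO2 stands at 3.17 and NDRG1 at -1.66, and HK2, SLC16A3 and VEGFA have the widest bars.

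Several steps have more than 1 gene, and the share of each isoenzyme was described from counts per exon length. ENO2 held 15.8% ± 2.76 of enolase in the day-6 controls and 71.0% ± 3.61 in the day-12 controls (SD, n = 2). In the doxycycline set its share was 9.26%, 33.4% and 10.4% on days 0, 5 and 11 without doxycycline, and 64.2% and 77.3% on days 5 and 11 with it. The size of this share depends on the length used. With the median length of protein-coding transcripts, an alternative chosen after seeing the data, it was 4.83% and 39.9% in the day-6 and day-12 controls, and 32.7% and 47.9% with doxycycline. Its order between those groups was the same with both lengths. HK2 held 28.0%, 27.5% and 56.3% of hexokinase on days 0, 5 and 11 without doxycycline and 1.14% and 0.297% with it. In the FGF2 set it held 2.30% to 3.46% in 7 libraries and 0.275% in day-12 control replicate 2. LDHB held 66.7%, 80.1% and 66.4% of lactate dehydrogenase without doxycycline, 88.9% and 89.7% with it, and 85.0% to 91.3% in the FGF2 set. PFKM held 22.1% to 35.4% of phosphofructokinase without and 67.4% to 67.6% with doxycycline, and 83.8% ± 0.141 on day 6 and 77.7% ± 1.70 on day 12. Of the exon bases of LDHB 33.4% overlap another gene, and the shares of 1 enzyme in 2 libraries against 2 were not tested.

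**Figure D4:**
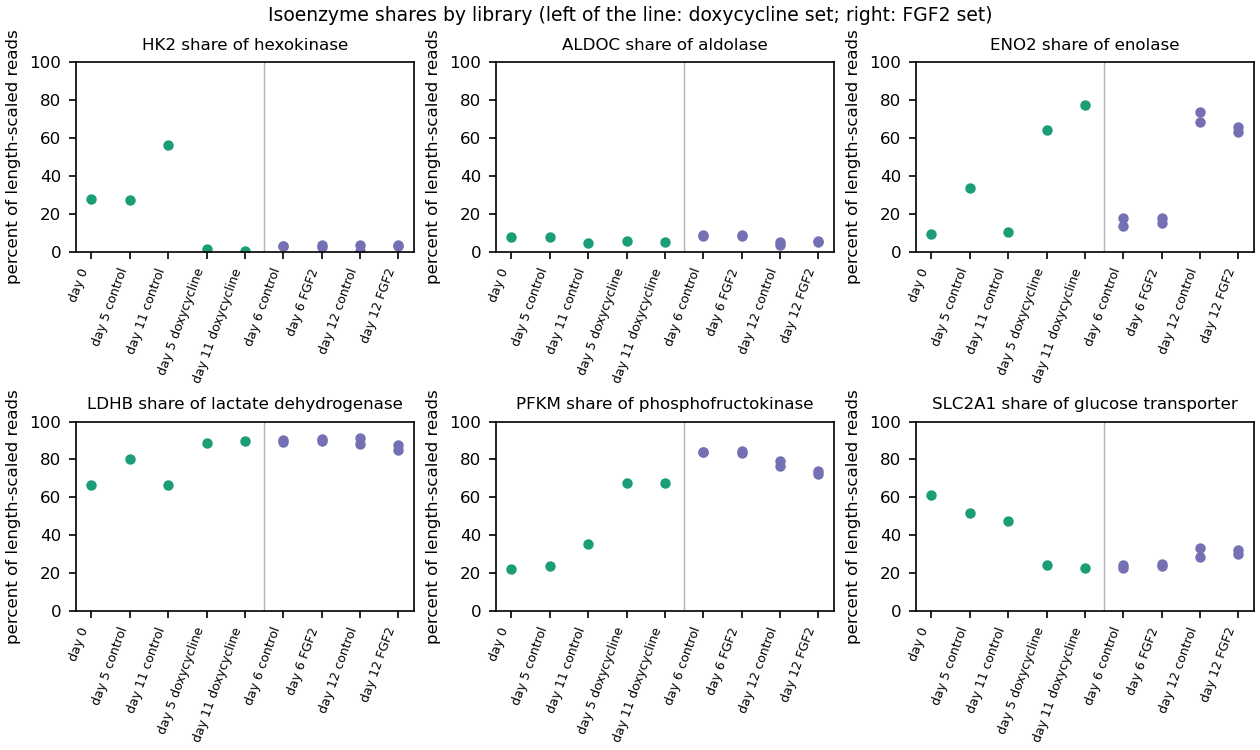
Share of each enzyme's length-scaled reads (vertical, percent, union of exons) held by HK2, ALDOC, ENO2, LDHB, PFKM and SLC2A1 in each library (points) by group (horizontal; doxycycline set left of the line, FGF2 set right). The ENO2 share is 13.8% and 17.7% in the day-6 controls and 68.4% and 73.5% in the day-12 controls.

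Late FGF2 was given after doxycycline was withdrawn, and 3 glycolytic genes rose and 1 hypoxia-induced gene fell. Of 33 genes 4 were called, where 2.17% of all genes were. The genes that rose were 3, where 1.63% of all genes did, and 1 fell, where 0.536% did. PFKP (ENSG00000067057, chr10:3066333-3137712) was at 17.3 and 13.6 CPM in the controls and 29.5 and 27.5 CPM with FGF2. The groups did not overlap, and the log2 change was 0.88 ± 0.136 (SE, adjusted p = 0.0016, edgeR). ENO1 (chr1:8861000-8879250) was at 403 and 296 CPM in the controls and at 576 and 480 CPM with FGF2, a change of 0.60 ± 0.12 (adjusted p = 0.0133, edgeR). LDHA (chr11:18394388-18408425), whose promoter is shown above, was at 131 and 88.6 CPM and at 191 and 154 CPM with FGF2, a change of 0.65 ± 0.139 (adjusted p = 0.0189, edgeR). NDRG1 was at 29.7 and 30.1 CPM and at 20.2 and 23.2 CPM with FGF2, a change of -0.46 ± 0.0938 (adjusted p = 0.0144, edgeR). In each of the 4 genes both FGF2 libraries lay on the same side of both controls.

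Of the 29 genes that were not called most had higher levels with FGF2, and 30 of all 33 estimates were positive. Both FGF2 libraries were above both controls for 20 of 33 genes, where this held for 23.5% of all genes, and below both for 2, where it held for 22.9%. An unadjusted p under 0.05 was reached by 17 of 33 genes, where 10.7% of all genes reached it, and the median change was 0.21 beside 0.00 over all genes. ALDOC was at 11.2 and 7.59 CPM and at 15.7 and 13.7 CPM with FGF2 (log2 difference 0.64, adjusted p = 0.0564, edgeR). ALDOA, PGK1 and SLC2A3 had adjusted p-values of 0.0614, 0.0637 and 0.0727 (edgeR) with log2 differences of 0.32, 0.31 and 0.28. GAPDH was at 883 and 899 CPM and at 1016 and 977 CPM with FGF2 (0.16), and PKM, pyruvate kinase, at 783 and 730.5 CPM and at 935 and 866 CPM (0.25). BNIP3, TPI1, LDHB, PDK1, SLC2A1 and HK1 also had both FGF2 libraries above both controls, with log2 differences of 0.17 to 0.35 and adjusted p-values of 0.209 to 0.431 (edgeR). EGLN3 was lower in both FGF2 libraries, at 6.48 and 7.16 CPM and at 4.53 and 4.71 CPM with FGF2 (-0.56, adjusted p = 0.121, edgeR). The sum over all 35 genes was 0.607% and 0.555% of counted reads in the controls and 0.705% and 0.655% with FGF2. Of the 11 hypoxia-induced genes 9 were tested, with a median of 0.07.

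The number of calls with late FGF2 depended on single libraries. It was 0 without day-12 control replicate 2, where 0.869% of all genes were called, 8 without day-12 control replicate 1 (1.02%) and 1 without day-12 FGF2 replicate 1 (1.04%). It was 16 without day-6 FGF2 replicate 1 or 2 (5.56% and 5.65%), libraries that enter this comparison only through the shared spread, the scaling and the filter. Without day-12 control replicate 2 the adjusted p (edgeR) was 0.0566 for PFKP, 0.265 for ENO1, 0.324 for LDHA and 0.172 for NDRG1. Without day-12 FGF2 replicate 1 that of ENO1 was 0.245, of LDHA 0.304 and of NDRG1 0.319, and without day-12 control replicate 1 that of NDRG1 was 0.145. DESeq2 called 6 of 33 genes, where 2.17% of all genes were called. It gave LDHA a change of 0.64 with an adjusted p of 0.147 and also called ALDOC, ALDOA and PGK1 (0.0209, 0.0397 and 0.0447). The limma voom fit called 6 as well, with ALDOA and PGK1 (0.0465 and 0.0452), where 2.34% of all genes were called. Fitting only the 2 groups compared called 17 of 33 genes, 15 that rose and 2 that fell, where 7.09% of all genes were called. The authors' deposited table from DESeq2 holds 12 of the 33 genes listed there at an adjusted p under 0.05, 11 higher and 1 lower, where 4.71% of its 17705 genes are. The authors' deposited table from limma holds 17, 15 higher and 2 lower, where 7.38% of genes are. In the authors' deposited table from DESeq2 ENO1 has an adjusted p of 0.179 and LDHA of 0.27, and in that from limma 0.000204 and 0.000655.

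The day-12 controls differed most from each other in genes of this set, a pattern singled out after the values were seen. HK2 had 276 counts in replicate 1 and 19 in replicate 2, or 11.2 and 0.810 CPM. SLC16A3 was at 16.5 and 3.24 CPM, VEGFA at 17.9 and 5.33 CPM and P4HA1 at 9.48 and 5.33 CPM. Of 11776 genes with a mean of at least 5 CPM in that group, HK2, SLC16A3, VEGFA and P4HA1 held ranks 1 to 4 by the ratio of replicate 1 to replicate 2, at 13.8, 5.09, 3.35 and 1.78. Only 4 of the 11776 genes (0.034%) were at least 2-fold apart in either direction, and HK2, SLC16A3 and VEGFA were 3 of them. PDK1 held rank 12, ALDOC rank 21, LDHA rank 24 and ENO1 rank 80. Of 32 listed genes at that level 28 were higher in replicate 1, with a median log2 ratio of 0.21 beside 0.01 over all genes. NDRG1, GAPDH, PDK3 and EGLN3 were the others. The day-12 FGF2 libraries differed in the same direction by less, with 26 of 31 genes higher in replicate 1 and a median of 0.09 beside 0.00 over all genes. SLC16A3 and VEGFA held ranks 3 and 5 of 11818 genes there, at ratios of 1.63 and 1.55. Summed neuron markers were at 17700 and 17500 CPM in replicates 1 and 2, dividing-cell markers at 9.52 and 10.7 CPM and neural progenitor markers at 539 and 576 CPM.

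With late FGF2 the libraries lay close to or above replicate 1 of the controls in these genes. HK2 was at 12.2 and 9.71 CPM, SLC16A3 at 26.6 and 16.3 CPM, VEGFA at 21.7 and 14.0 CPM and P4HA1 at 8.38 and 8.63 CPM with FGF2. The groups overlapped in all 4 genes and none was called in the main fit, with log2 differences of 0.85, 1.11, 0.61 and 0.20. With the replicate number added to the fit as a block, SLC16A3 was called (1.25, adjusted p = 0.008, edgeR). Without control replicate 1 the difference of HK2 was 3.75 (adjusted p = 1.72e-05, edgeR), that of SLC16A3 2.73 (0.00018) and that of VEGFA 1.75 (0.00238). Without control replicate 2 they were -0.04, 0.37 and -0.01, with adjusted p-values of 0.992, 0.857 and 1 (edgeR). The same library decides the day comparison of HK2, whose change from day 6 to day 12 was -3.86 (adjusted p = 1.39e-07, edgeR) without replicate 1 and -0.06 (0.805) without replicate 2. For VEGFA the values were -0.42 (0.196) and 1.34 (0.000146). In the day-6 groups 0 of 29 listed genes were 2-fold apart between replicates, where 0.0253% of all genes were in controls and 0.0844% with FGF2, and in the day-12 FGF2 group 0 of 31, where 0.0169% were. Late FGF2 and the day comparison share the day-12 controls, so these libraries enter both.

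**Figure D5:**
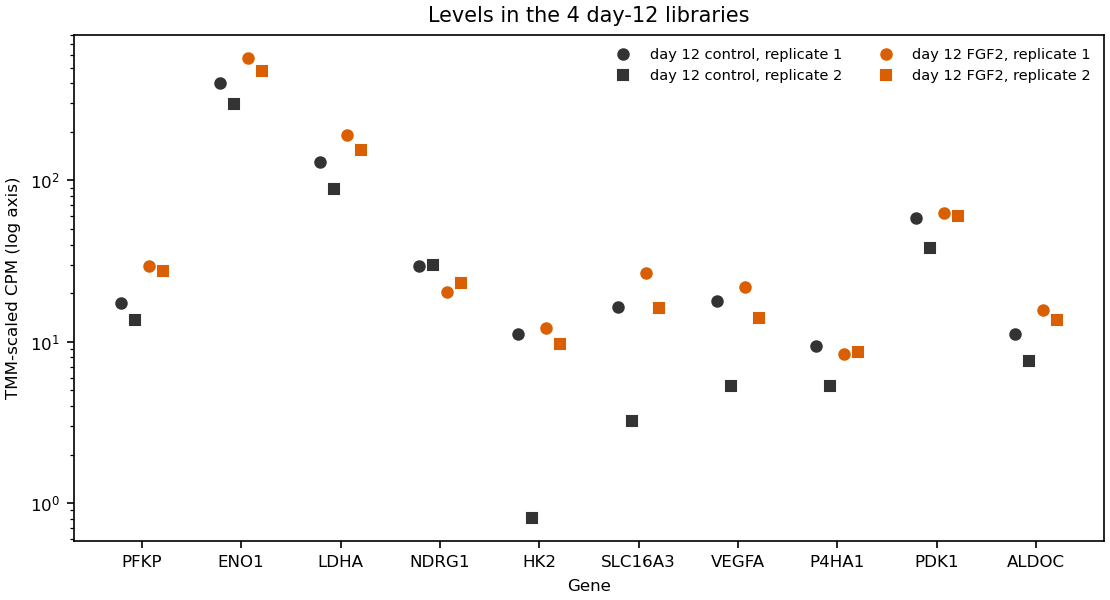
Level in each of the 4 day-12 libraries (vertical, TMM-scaled CPM, log axis) for 10 genes (horizontal), controls in grey and FGF2 in orange, replicate 1 as circles and replicate 2 as squares. PFKP, ENO1 and LDHA separate by group, while HK2, SLC16A3 and VEGFA are low in control replicate 2 alone.

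Early FGF2, given together with doxycycline, was followed by no detected change in these genes. edgeR called 0 of 33 genes, where it called 0.0% of all genes, the smallest adjusted p was 0.927, and 0 of 33 had an unadjusted p under 0.05, where 3.27% of all genes did. DESeq2 and limma voom also called 0 of 33. Among the 33 genes in each of the authors' deposited tables for early FGF2, 0 are at an adjusted p under 0.05, where 0.0% of all genes are. Both FGF2 libraries were above both controls for 4 genes, where this held for 15.6% of all genes, and below both for 3, where it held for 12.4%. PFKP was at 10.9 and 11.4 CPM in the controls and 10.2 and 13.1 CPM with early FGF2, ENO1 at 512 and 495 and at 504 and 565 CPM, LDHA at 169 and 159 and at 156 and 165 CPM, and NDRG1 at 97.1 and 92.0 and at 97.0 and 91.6 CPM. The groups overlapped in each of these. Without day-6 FGF2 replicate 1 edgeR called 5 of 33 genes, all higher, where it called 12% of all genes. The replicates of that group lay further apart than those of the other groups: scaled by its degrees of freedom, the chi-square of their counts over genes was 21.2, beside 3.02 to 3.46.

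The difference between the late and the early effect was tested itself, and edgeR called 0 of 33 genes, where 0.73% of all genes were called. The smallest adjusted p was 0.102, for PFKP, with a difference of 0.82 ± 0.201 on the log2 scale, and 8 of 33 genes had an unadjusted p under 0.05, where 7.32% of all genes did. For LDHA the difference was 0.69 (adjusted p = 0.225), for ENO1 0.51 (0.387) and for NDRG1 -0.45 (0.214), all by edgeR. DESeq2 called 1 gene, PFKP (adjusted p = 0.049), and limma voom 0. Leaving out day-6 FGF2 replicate 1 or 2, or day-12 control replicate 1, gave 4, 8 and 4 calls, where 6.38%, 1.68% and 0.455% of all genes were called. A difference between late and early FGF2 thus passed the test only under some settings.

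Further genes of the same pathways were taken from 4 lists, none of whose members is among the 35. Of 13 genes that regulate HIF, 12 were tested, and on day 12 against day 6, 5 rose and 2 fell. In that comparison 31.7% of all genes rose and 32.3% fell, so that this count and those of the other 3 lists stand against a high background. ARNT2, the neural partner of HIF, rose from 82.4 ± 1.25 to 232 ± 0.885 CPM (CPM mean ± SD, n = 2) and VHL, the ubiquitin ligase subunit that recognises marked HIF, from 83.2 ± 0.978 to 115 ± 3.95 CPM, while HIF1A fell from 299.9 ± 19.1 to 220.4 ± 15.9 CPM (-0.44). In the doxycycline set ARNT2 was at 10.8 and 45.7 CPM without and 119 and 224 CPM with doxycycline. Of 23 other glycolysis, lactate and pyruvate genes tested 6 rose and 11 fell. SLC16A1, the lactate transporter MCT1, fell from 92.4 ± 2.76 to 22.6 ± 2.23 CPM and ENO3, the muscle enolase, from 68.7 ± 1.40 to 4.83 ± 0.293 CPM. SLC16A1 was at 986 and 396 CPM without and 60.5 and 26.7 CPM with doxycycline. Of 7 pentose phosphate genes 4 fell and none rose. Of 25 other hypoxia targets tested 10 rose and 13 fell, and HMOX1, haem oxygenase, fell from 33.4 ± 0.944 to 1.26 ± 0.927 CPM.

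With late FGF2 edgeR called 2 of the 25 other hypoxia targets tested, both risen, where 1.63% of all genes rose. MAFF, a small Maf transcription factor, rose from 3.31 ± 0.208 to 12.2 ± 0.143 CPM, a change of 1.88 ± 0.152 on the log2 scale (adjusted p = 2.73e-06, edgeR), and BHLHE40, a transcriptional repressor, from 0.620 ± 0.154 to 1.91 ± 0.323 CPM (1.62 ± 0.394, adjusted p = 0.0468, edgeR). Of the 12 HIF regulators, 23 other glycolysis genes and 7 pentose phosphate genes tested 0 were called by edgeR with late FGF2. Early FGF2 called 0 members of the 4 lists. Of the 4 lists MAFF was the only gene called for the difference between late and early FGF2.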

How the data were processed

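RNA was sequenced as 50-base single-end reads with an unstranded kit, per the labels' protocols. The submitters' processing notes name Subread, featureCounts 1.5.0, the build GRCh38, DESeq2 and limma, without their order. Settings and annotation version are not given in the sources used here. Without strand, reads of overlapping and antisense genes cannot be told apart. The main values are the deposited raw counts per gene for 5 libraries of one run and 8 of another, which were never tested against each other. The authors' deposited log2 changes and adjusted p-values for early and late FGF2 are shown only as theirs. The authors' deposited normalized values (a signal of count size) served as an alternative for the doxycycline set. The files hold 16 other per-sample columns, which were not used. Gene names came from the deposited tables (26349 genes) or a reference name table (30921), and 3369 genes had none.

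The FGF2 set was fitted with edgeR 4.0.16 (R 4.3.3, limma 3.58.1): filterByExpr, TMM factors and quasi-likelihood tests over all 8 libraries, with Benjamini-Hochberg adjustment over 20142 genes. Genes were called at an adjusted p under 0.05. The doxycycline set has 1 library a group. Log2 ratios of TMM-scaled CPM with 1 CPM added were therefore counted at 2-fold, with no test. The 95% exact intervals cover counting error only. Library depth is given in the report. DESeq2 was version 1.42.0. Figures used matplotlib 3.10.9. The fit was checked on simulated counts.

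The 35 genes and the other lists were chosen with earlier results of these data known. All 35 genes are named. Of each further list at most 4 called genes of smallest p are named, and with doxycycline at most 4 of the largest ratio at 10 CPM or more. Alternatives were other scalings, filters, tools, pseudocounts and folds, the replicate block, added pseudogene counts, and leaving out each library. The median transcript length was added after seeing the data. Some genes of the further lists are not reported here.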

Additional observations from a re-analysis of the deposited data

How the results depend on the processing

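In all 104 counts and shares were recomputed under the alternatives. Of these 77 stayed within 1.5 times the first value, or within the spread between libraries, and 27 moved. Of 1395 recomputed values of single genes 1223 kept their side of the threshold, 64 fell short of it, 108 passed it and 0 called values changed sign. Some values that were not called did change sign. With late FGF2 the log2 difference of HK2 went from 0.85 to -0.04 without day-12 control replicate 2. That of VEGFA went from 0.61 to -0.01. With late FGF2 the 4 calls among the 35 genes became 12 with no filter on low counts and 17 with only the groups compared, and 0 to 16 with 1 library left out. Over all genes the 437 calls became 656, 1338 and 184 to 1188. With early FGF2 the 0 calls became 0 to 5 with 1 library left out, the 5 without day-6 FGF2 replicate 1. For late minus early FGF2 the 0 calls became 1 with DESeq2, where 0.933% of all genes were called, and 5 with no filter, where 0.703% were. This number also changed with 1 library left out, as described above. Day 12 against day 6 gave 23 calls in the main fit, where 64.0% of all genes were called. It gave 23 with DESeq2, where 59.1% were called, and 25 with no filter, where 34.6% were.

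Replicate numbers were not taken to pair the libraries. The difference between replicates 1 and 2 correlated at 0.376 between the day-6 groups, 0.17 between the day-12 groups and 0.012 to 0.209 between days, over 10608 genes. With the number as a replicate block, late FGF2 gave 8 calls, adding ALDOA, ALDOC, PGK1 and SLC16A3 (adjusted p 0.0292, 0.0191, 0.0322 and 0.008, edgeR), late minus early FGF2 2 (PFKP and LDHA), early FGF2 0 and day 12 against day 6 25. Over all genes late FGF2 then gave 598 calls (2.97%). Of all genes 1.02% were called for late minus early FGF2, 0 for early FGF2 and 65.5% for day 12 against day 6.

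At 4-fold in place of 2-fold, 9 of 33 genes differed with doxycycline on day 5, 1 higher and 8 lower. Of all 12895 genes 1625 were higher and 1477 lower. On day 11, 13 of 33 differed, 1 higher and 12 lower, beside 1457 and 1247 of 12655 genes. Against day 0 without doxycycline, 1 was lower on day 5, beside 25 of 11916 genes, and 1 on day 11, beside 295 of 11996. None was higher there, beside 100 and 253 genes. Of 11465 genes 85 were higher and 140 lower between day 5 and day 11 with doxycycline, and 0 of 28 listed genes differed. That last count, 1 at 2-fold, was 0 with library totals, 0 with 5 CPM added and 2 with no filter on low values, and with the authors' normalized values it was 1 higher in place of 1 lower. With median transcript lengths the ENO2 share was 4.83% on day 6 and 39.9% on day 12 in the controls, and day-6 HK2 and LDHA held 1.83% and 12.0%, beside 3.03% and 10.2%. Depth limits ADM and CA9 in the FGF2 set.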

Other observations

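With doxycycline the further pathway lists were counted at 2-fold among genes of 10 CPM or more, with 1 library a group and no test. Of all genes 29.1% were higher and 21.1% lower on day 5, and 24.6% and 21.2% on day 11. Of 22 other hypoxia targets 3 were higher and 10 lower on day 5, and of 20 on day 11, 0 were higher and 10 lower. Of 12 HIF regulators 4 were higher and 1 lower on day 5, and 1 was higher and 2 were lower on day 11. Of the other glycolysis, lactate and pyruvate genes 6 of 23 were higher and 6 lower on day 5, and 5 of 20 were higher and 4 lower on day 11. The 7 pentose phosphate genes counted 2 higher and 1 lower on day 5 and 0 in either direction on day 11.

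The authors' deposited normalized values for the doxycycline set are each the raw count times 1 of 6 factors, and the factors repeat with the position of the row rather than with the library. This held for all 127464 values checked. The factors run from 0.8389 to 1.1935, a 1.423-fold range. With these values in place of CPM, 6 of the genes described here were higher and 13 lower with doxycycline on day 5. Of all genes 3221 were then higher and 3067 lower.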
